A study of Mus musculus with 15 samples.

Results

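The lungs of mice given the secretome of an osteosarcoma cell line were compared with the lungs of control mice, over all expressed genes and lung by lung. Every lung that the labels call secretome-treated (SCR) or control (CTR) was taken, which gave 6 SCR and 4 CTR lungs, 10 of the 15 lungs of the series. The other 5 lungs came from tumour-bearing mice and entered no comparison here, though they shared the model that set the filter, the scaling and the spread. All animals were athymic Swiss nude mice (Foxn1nu/nu), which have no thymus, and by the methods they were 8 to 12 weeks old and of either sex. SCR mice received 25 µL of 143B secretome into the peritoneum on each of 7 days. 143B is a human osteosarcoma line, and its secretome is the medium into which the cells released their products, so the treatment stands for 1 cell line. The labels name no treatment for CTR, and the methods speak of vehicle-injected animals in one place and of untreated animals in others. The question was which lung transcripts differ when tumour-derived factors reach a lung that holds no tumour. Libraries are numbered as in the labels, SCR lungs 1 to 6 and CTR lungs 1, 2, 4 and 5, and their values are listed in that order. The labels do not say which animals shared a litter, cage or day, so p-values measure only the spread between lungs. The model took that spread from all 15 lungs, the tumour-bearing ones included.

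The extracellular matrix of the lung is made of basement membranes under epithelium and endothelium, of fibrillar collagens in the interstitium and of elastic fibres. Type IV collagen forms the net of basement membranes, fibroblasts and vascular cells make most of the matrix, and metalloproteinases cut it. AP-1 is a dimer of Fos, Jun or Atf proteins whose genes, like those of the Egr and Nr4a families, are transcribed within minutes of a stimulus and decay quickly. Multiciliated cells line the airways beside the secretory club cells and move mucus with motile cilia built on centrin-containing basal bodies and dynein-driven axonemes.

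The deposited values used here were reads counted per gene, from 13078095 to 18621680 reads in SCR lungs (median 14530075) and from 14167644 to 22109856 in CTR lungs (median 18283780). Levels are given as CPM, reads of a gene scaled to a common library size with TMM factors, and differences as log2 fold changes of SCR over CTR from edgeR's quasi-likelihood test on 15870 genes that passed a filter on low counts. Total counts, the number of genes with a read and the shares of mitochondrially encoded reads, of the 10 most abundant genes, of Scgb1a1 and of Sftpc did not pass an exact permutation test of 6 against 4 lungs after adjustment over these 6 measures (smallest adjusted p = 0.257). In a principal component analysis of 2000 genes, the first component took 41.3% of the variance and set SCR lungs 1 to 3 apart, at 36.4 to 54.0, from SCR lungs 4 to 6 at -30.9 to -27.0 and from the CTR lungs at -33.9 to 2.12. SCR lungs 4 and 6 came from females by Xist and Y-linked genes, and the other SCR lungs and all CTR lungs from males. Sftpc, the surfactant protein of alveolar type 2 cells that marks lung tissue, had 32948, 18324, 20261, 11778, 13162 and 10923 CPM in SCR lungs 1 to 6, against 14251, 21060.0, 16787 and 14389 CPM in the CTR lungs. In whole tissue, fewer cells of a type and less RNA per cell cannot be told apart.

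At a Benjamini-Hochberg adjusted p under 0.05, 16 genes fell in SCR lungs (0.101% of the genes tested) and 2 rose (0.0126%), 18 together (0.113%). At an unadjusted p under 0.05, 1615 genes were lower (10.2%) and 1361 higher (8.58%), and at the threshold of the study, which also asks for a log2 fold change above 1 or below -1, 103 were lower (0.649%) and 156 higher (0.983%), 1.63% together. The 6 SCR lungs all lay below the 4 CTR lungs for 400 genes (2.52%) and all above them for 236 genes (1.49%), 4.01% together. With upper-quartile scaling, the groups did not overlap for 309 lower and 323 higher genes, and 1297 lower and 1652 higher genes had an unadjusted p under 0.05. With a correction for GC content the groups parted for 315 lower and 284 higher genes. The number of genes passing the adjusted test depended on single lungs. It was 0, 2, 2, 4, 108 and 19 without SCR lung 1, 2, 3, 4, 5 or 6, and 4, 5, 0 and 66 without CTR lung 1, 2, 4 or 5. Without SCR lungs 1 to 3 it was 0, and 1613 genes had an unadjusted p under 0.05. Without SCR lungs 4 to 6 it was 3659, which included all of the 18 genes. With the 8 male SCR and CTR lungs, beside the male tumour-bearing lungs in the model, it was 0. When only SCR and CTR lungs entered the fit it was 0 as well, and 2403 genes had an unadjusted p under 0.05. With sex as a covariate it was 19, of which 10 were among the 18. Adamts2, Astn2, Col6a1, Dusp8, Mcam, Mmp2, Sfxn2 and Thbs1 then lay just past the threshold, at edgeR adjusted p-values of 0.0518 to 0.0676. At an unadjusted p under 0.05, edgeR still listed 2535 genes without SCR lung 1, 1694 without CTR lung 4 and 3854 with male lungs alone.

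**Figure D1:**
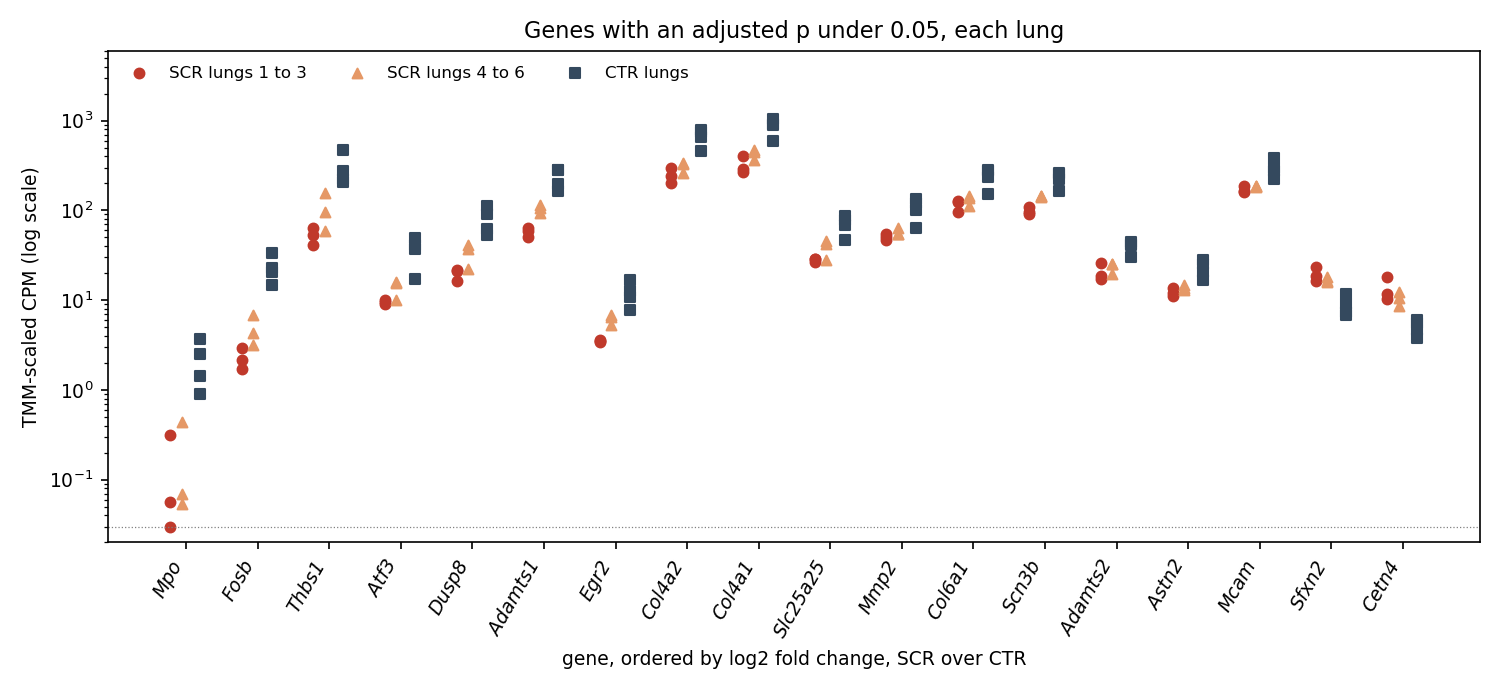
TMM-scaled CPM of the 18 genes with an adjusted p under 0.05, on a log axis, ordered by log2 fold change of SCR over CTR. Circles are SCR lungs 1 to 3, triangles SCR lungs 4 to 6 and squares CTR lungs, and a value below 0.03 CPM (Mpo in SCR lung 1, listed at 0) is drawn at the dotted line. The groups overlap for Mmp2 alone, and Sfxn2 and Cetn4 on the right are the 2 genes that are higher in SCR.

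Basement membrane transcripts were lower in SCR lungs as a group, and both chains of the most common type IV collagen passed the adjusted test. All 24 genes of the list (collagen IV and XVIII, laminins, nidogens, perlecan and their partners) had a log2 fold change below 0, against 48.8% of all genes tested, and a median of -0.83, against 0.01 over all genes. Unadjusted p-values were under 0.05 for 24 of 24 (10.2% of all genes in that direction), the groups did not overlap for 16 of 24 (2.52%), and 2 passed the adjusted test (0.101%). This list and the other gene lists here were chosen with earlier results of these data known. Their counts describe these lungs and are no independent test. Col4a1 (ENSMUSG00000031502) and Col4a2 (ENSMUSG00000031503) lie head to head on chromosome 8 (GRCm38, chr8:11198423-11312826 and chr8:11312805-11449287) and are transcribed in opposite directions. Their promoter windows from RefSeq (GRCm38.p6, 250 bases before to 50 after each start, in the direction of transcription) are shown because the pair shares 1 start region: the capitals mark the 78 bases that both windows hold, read on opposite strands, and 22 of them lie downstream of both starts.
Col4a1 promoter (chr8:11312777-11313076, minus strand): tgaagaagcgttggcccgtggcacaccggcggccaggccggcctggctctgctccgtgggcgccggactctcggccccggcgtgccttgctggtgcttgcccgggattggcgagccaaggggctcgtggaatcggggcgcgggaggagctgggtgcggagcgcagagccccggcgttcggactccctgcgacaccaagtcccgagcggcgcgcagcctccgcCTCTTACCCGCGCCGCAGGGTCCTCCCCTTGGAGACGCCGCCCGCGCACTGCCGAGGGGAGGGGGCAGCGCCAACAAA
Col4a2 promoter (chr8:11312555-11312854, plus strand): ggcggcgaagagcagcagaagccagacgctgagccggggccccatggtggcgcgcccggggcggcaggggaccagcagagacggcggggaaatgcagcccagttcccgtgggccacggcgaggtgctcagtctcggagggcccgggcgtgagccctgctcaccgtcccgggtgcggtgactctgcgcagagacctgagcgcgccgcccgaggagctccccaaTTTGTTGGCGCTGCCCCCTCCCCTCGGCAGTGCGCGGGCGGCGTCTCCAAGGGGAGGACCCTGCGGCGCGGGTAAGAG
Col4a1 had 286, 399, 269.9, 449, 468 and 359 CPM in SCR lungs 1 to 6, against 884, 906, 1032 and 592 CPM in the CTR lungs. Every SCR lung lay below every CTR lung, and CTR lung 5 was the lowest control. The gene fell (log2 fold change -1.20, standard error (SE) 0.18, edgeR adjusted p = 0.0289). Col4a2 had 242, 299, 201, 328, 339 and 259 CPM in SCR lungs 1 to 6, against 651, 753, 789 and 454 CPM in the CTR lungs. Again the groups did not overlap, with SCR lung 3 lowest and CTR lung 5 the lowest control. The gene fell (log2 fold change -1.25, SE 0.17, edgeR adjusted p = 0.0136). Against CTR, SCR lungs 1 to 3 alone gave -1.42 and SCR lungs 4 to 6 alone -1.06. The exons of the 2 genes overlap on opposite strands for a short stretch, and the strand setting of the counting is not given in the sources used here.

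Other parts of the basement membrane stayed short of the adjusted threshold. Hspg2, the core protein of perlecan, had 54.3, 69.9, 38.6, 110.4, 116 and 77.6 CPM in SCR lungs 1 to 6, against 172, 252, 227 and 134 CPM in the CTR lungs. SCR lung 3 held the least and no SCR lung reached CTR lung 5, the lowest control (log2 fold change -1.33, edgeR adjusted p = 0.0521). Lamb2, a laminin beta chain, had 104, 106, 78.5, 116, 118 and 99.2 CPM in SCR lungs 1 to 6, against 162, 226, 207 and 124 CPM in the CTR lungs. Again no SCR lung reached a control (log2 fold change -0.80). Sparc, a collagen-binding glycoprotein, had 1177, 1236, 1063, 1243, 1211 and 1076 CPM in SCR lungs 1 to 6, against 1768, 2221, 2209 and 1362 CPM in the CTR lungs. The groups parted by a narrow margin at CTR lung 5 (log2 fold change -0.69). Npnt, nephronectin, had 444, 526, 449, 671, 659.9 and 672 CPM in SCR lungs 1 to 6, against 1036, 1084, 1305 and 723 CPM in the CTR lungs. Its values lay in 3 steps, SCR lungs 1 to 3 below SCR lungs 4 to 6 and both below the controls (log2 fold change -0.86). The mean log2 CPM of the list was 5.81, 6.26, 5.89, 6.53, 6.54 and 6.31 in SCR lungs 1 to 6, against 7.06, 7.32, 7.30 and 6.71 in the CTR lungs. CTR lung 5 was the lowest control for 22 of the 24 genes, against 25.1% of all genes tested.

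The interstitial matrix was lower too. All 16 fibrillar and microfibril collagens had a log2 fold change below 0 (median -0.89). Unadjusted p-values were under 0.05 for 13 (10.2% of all genes in that direction), and the groups did not overlap for 8 (2.52%). Col6a1, a chain of the microfibril-forming type VI collagen, had 129, 125, 96.7, 137, 143 and 113 CPM in SCR lungs 1 to 6, against 233, 279, 276 and 154 CPM in the CTR lungs. All SCR lungs lay below all CTR lungs, and the gene fell (log2 fold change -0.93, SE 0.17, edgeR adjusted p = 0.0471). Col1a1, of type I collagen, had 32.9, 36.1, 19.2, 92.4, 102 and 72.2 CPM in SCR lungs 1 to 6, against 189.9, 193, 189 and 109 CPM in the CTR lungs. The SCR lungs split, lungs 1 to 3 far below lungs 4 to 6, and the log2 fold change was -1.53 over all of them (edgeR adjusted p = 0.0845), -2.53 for lungs 1 to 3 and -0.90 for lungs 4 to 6 against CTR. Col3a1, of type III collagen, had 86.2, 121, 77, 291, 288 and 228 CPM in SCR lungs 1 to 6, against 542, 471, 444 and 309.6 CPM in the CTR lungs. The same split appeared, with no overlap with the controls (log2 fold change -1.28, edgeR adjusted p = 0.1). All 17 elastic fibre genes were below 0 (median -0.50), 10 with an unadjusted p under 0.05 (10.2% of all genes) and 3 with no overlap (2.52%). Mfap4, which binds elastin and collagen, had 490.1, 395, 383, 485, 321 and 495 CPM in SCR lungs 1 to 6, against 663, 892, 1312 and 618 CPM in the CTR lungs. SCR lung 5 was lowest and CTR lung 4 highest, and the groups did not overlap (log2 fold change -1.03, edgeR adjusted p = 0.0707).

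Among 25 adhesive glycoproteins and proteoglycans, 22 were below 0, with a median log2 fold change of -0.43. At an unadjusted p under 0.05, 12 were lower, against 10.2% of all genes. Thbs1, thrombospondin 1, an adhesive protein that activates latent TGF-beta, had 40.9, 63.2, 53.7, 59.2, 154 and 96 CPM in SCR lungs 1 to 6, against 207, 223, 276 and 470.3 CPM in the CTR lungs. SCR lung 5 came closest to the controls, CTR lung 5 was highest and the groups did not overlap. The gene fell (log2 fold change -1.92, SE 0.34, edgeR adjusted p = 0.045). Fn1, fibronectin, which carries cell adhesion sites, had 112, 113, 99.3, 227, 219 and 256 CPM in SCR lungs 1 to 6, against 294, 458, 358 and 283 CPM in the CTR lungs. SCR lungs 1 to 3 stood lowest, SCR lungs 4 to 6 lay between them and the controls, and the difference did not pass the adjusted test (log2 fold change -1.03, SE 0.26, edgeR adjusted p = 0.0992). Tnc, tenascin C, had 4.04, 4.58, 4.02, 7.64, 8.45 and 8.71 CPM in SCR lungs 1 to 6, against 16.6, 13.6, 15.8 and 14.9 CPM in the CTR lungs. These values too lay in 3 steps (log2 fold change -1.29, edgeR adjusted p = 0.1).

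Of 34 matrix proteases and inhibitors, 29 were below 0 (median -0.28). At an unadjusted p under 0.05, 9 were lower, against 10.2% of all genes, and 3 of these passed the adjusted test (0.101%). Adamts1, a secreted protease that cleaves proteoglycans, had 50.9, 62.8, 59.3, 93.5, 115 and 107 CPM in SCR lungs 1 to 6, against 196, 166, 285 and 284 CPM in the CTR lungs. SCR lungs 1 to 3 were lowest and no SCR lung reached the lowest control, CTR lung 2. It fell (log2 fold change -1.52, SE 0.25, edgeR adjusted p = 0.0416). Adamts2, which trims procollagen, had 17.3, 25.7, 18.5, 25.5, 24.9 and 19.5 CPM in SCR lungs 1 to 6, against 41, 44.8, 42.3 and 29.97 CPM in the CTR lungs. The groups parted above 25.7 CPM, and the gene fell (log2 fold change -0.85, SE 0.16, edgeR adjusted p = 0.0471). Mmp2, a gelatinase, had 51, 53.9, 47.1, 63.8, 54.2 and 54.1 CPM in SCR lungs 1 to 6, against 100.2, 135, 121 and 63.7 CPM in the CTR lungs. SCR lung 4 lay just above CTR lung 5, so the groups overlapped, and the gene fell (log2 fold change -0.96, SE 0.17, edgeR adjusted p = 0.0437). Mmp14, the membrane protease that activates Mmp2, had 16.1, 23.9, 22.2, 37.9, 39.1 and 39 CPM in SCR lungs 1 to 6, against 46.1, 57, 57.5 and 43.3 CPM in the CTR lungs. Controls were above all SCR lungs (log2 fold change -0.78, edgeR adjusted p = 0.1).

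Marker lists of the cells that make matrix were lower too, but they are not separate from the matrix lists. The fibroblast list shares Col13a1 with the collagens and Mfap4 with the elastic fibres, and it includes Npnt. For comparison, 10.2% of all genes were lower at an unadjusted p under 0.05. Of 24 endothelial markers 19 were below 0 and 11 were lower at an unadjusted p under 0.05 (median log2 fold change -0.35), and their summed level was 6980 to 7871 CPM in SCR lungs, against 8593 to 10540 CPM in CTR lungs. Cdh5, the cadherin of endothelial junctions, had 522, 661, 577, 776, 818 and 790.2 CPM in SCR lungs 1 to 6, against 1076, 1309, 1403 and 883 CPM in the CTR lungs. All SCR lungs were below the controls (log2 fold change -0.76, edgeR adjusted p = 0.0783). Of 22 fibroblast markers 20 were below 0 and 10 were lower at an unadjusted p under 0.05 (median -0.33), with a summed level of 7121 to 10190 CPM in SCR lungs, against 7279 to 12310 CPM in CTR lungs. Of 20 pericyte and smooth muscle markers 17 were below 0 and 5 lower (median -0.29), at 1563 to 2029 CPM in SCR lungs, against 1872 to 2847 CPM in CTR lungs. The median of this last list was -0.06 with SCR lungs 1 to 3 and -0.40 with SCR lungs 4 to 6. In the same order it was -0.29 and -0.25 for endothelial and -0.46 and -0.28 for fibroblast markers. No marker of these 3 lists was at 0, and their part in the matrix result was not tested. Mcam, CD146 of endothelial and smooth muscle cells, had 187, 164, 161, 186, 189 and 180.2 CPM in SCR lungs 1 to 6, against 278, 299, 379 and 223 CPM in the CTR lungs. Without overlap, it fell with a log2 fold change of -0.73 (edgeR adjusted p = 0.0471).

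Gene length and GC content moved with the fold changes over all genes, more so for length in SCR lungs 1 to 3. The median log2 fold change was 0.28 in the shortest eighth of genes (up to 1484 bases) and -0.13 in the longest (from 8045 bases). It was 0.45 and -0.33 with SCR lungs 1 to 3, against 0.08 and 0.04 with SCR lungs 4 to 6. From the lowest eighth of GC content (up to 42.2%) to the highest (from 56.8%), it was 0.18 and -0.11 for all SCR lungs, and 0.27 and -0.15 for SCR lungs 4 to 6. Basement membrane genes had a median length of 7497 bases and fibrillar collagens of 8828 bases, and the length groups of their members had medians of -0.08 and -0.13. The median of the basement membrane list was -0.79 with all SCR lungs after a correction for GC content. With SCR lungs 4 to 6 and no such correction it was -0.60. The parts of length and GC content in the matrix result were not tested.

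**Figure D2:**
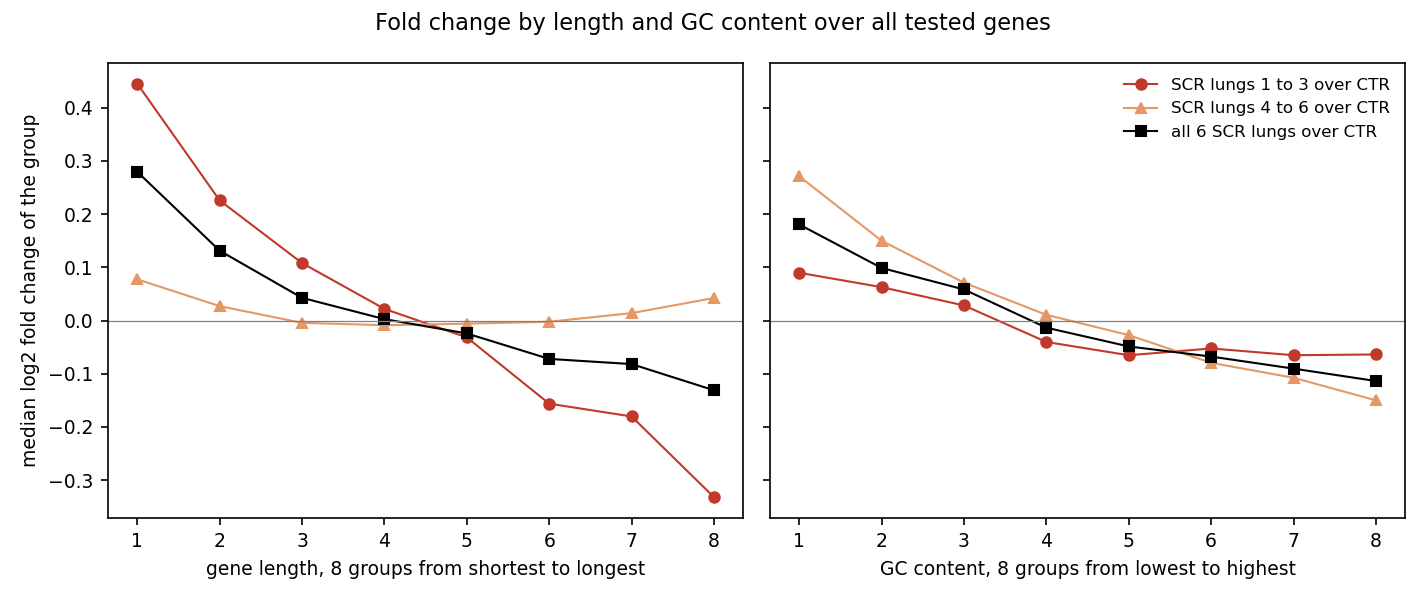
Median log2 fold change of SCR over CTR in 8 equal groups of the 15870 tested genes, by length on the left and by GC content on the right. Circles are SCR lungs 1 to 3, triangles SCR lungs 4 to 6 and squares all 6 SCR lungs, each against CTR. By length the line of SCR lungs 1 to 3 runs from 0.45 to -0.33 and that of SCR lungs 4 to 6 stays between -0.01 and 0.08.

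Transcripts of AP-1 and other early response genes formed the second group that was lower in SCR lungs. Of 12 AP-1 subunits 9 were below 0 (median log2 fold change -0.56). At an unadjusted p under 0.05, 7 were lower (10.2% of all genes), and for 5 the groups did not overlap (2.52%). The median was -0.55 with SCR lungs 1 to 3 and -0.60 with SCR lungs 4 to 6. The mean log2 CPM of the list was 4.39, 4.55, 4.50, 4.53, 4.94 and 4.81 in SCR lungs 1 to 6, against 4.98, 5.51, 5.64 and 5.66 in the CTR lungs. Promoter windows of 3 genes with low values in SCR are shown with a core of the cyclic AMP response element in capitals, because such elements are known in early response promoters. In Fosb and Fos the capitals are TGACG, present on either strand in 20.8% of 32851 mouse windows of this length, and in Dusp8 the whole palindrome TGACGTCA, present in 1.79%.
Fosb promoter (chr7:19309996-19310295, minus strand): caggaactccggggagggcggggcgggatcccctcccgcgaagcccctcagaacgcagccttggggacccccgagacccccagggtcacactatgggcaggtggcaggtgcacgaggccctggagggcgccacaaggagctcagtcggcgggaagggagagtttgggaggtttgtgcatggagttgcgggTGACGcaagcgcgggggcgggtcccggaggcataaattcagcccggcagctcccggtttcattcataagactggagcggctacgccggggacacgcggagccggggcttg
Fos promoter (chr12:85473640-85473939, plus strand): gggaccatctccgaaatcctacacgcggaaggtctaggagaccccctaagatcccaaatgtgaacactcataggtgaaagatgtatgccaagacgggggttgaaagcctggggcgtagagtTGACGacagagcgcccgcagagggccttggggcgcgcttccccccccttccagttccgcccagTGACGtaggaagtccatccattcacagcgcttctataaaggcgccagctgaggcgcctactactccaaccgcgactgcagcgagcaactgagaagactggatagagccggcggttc
Dusp8 promoter (chr7:142095235-142095534, minus strand): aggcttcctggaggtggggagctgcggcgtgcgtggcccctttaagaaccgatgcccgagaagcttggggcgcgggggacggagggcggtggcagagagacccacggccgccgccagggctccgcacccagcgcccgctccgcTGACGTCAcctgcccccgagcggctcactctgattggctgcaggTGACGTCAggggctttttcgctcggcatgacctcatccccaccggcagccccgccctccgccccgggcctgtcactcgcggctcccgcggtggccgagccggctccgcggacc
The matches begin 60 bases before the start in Fosb, 129 and 66 before it in Fos, and 107 and 63 before it in Dusp8. TGACG was present for 7 of the 11 AP-1 genes with a window, against 23% of 27025 genes. A match describes the sequence and shows no binding.

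Fosb (ENSMUSG00000003545, chr7:19302721-19310045), a Fos protein of AP-1, had 1.71, 2.90, 2.13, 3.13, 6.79 and 4.28 CPM in SCR lungs 1 to 6, against 14.8, 20.4, 33.6 and 22.7 CPM in the CTR lungs. SCR lung 5 was the highest of its group and still under the lowest control, CTR lung 1. It fell (log2 fold change -2.71, SE 0.37, edgeR adjusted p = 0.0136), with values of -3.33 for SCR lungs 1 to 3 and -2.25 for SCR lungs 4 to 6. Fos itself had 17.1, 23.5, 21.9, 66.3, 99.6 and 32.4 CPM in SCR lungs 1 to 6, against 123, 135, 168 and 275 CPM in the CTR lungs. Its lowest values were in SCR lungs 1 to 3, SCR lungs 4 and 5 came closer to the controls, and CTR lung 5 was highest (log2 fold change -2.01, SE 0.47, edgeR adjusted p = 0.0845). Atf3, a stress-induced partner of AP-1, had 9.01, 9.54, 10.1, 9.97, 15.5 and 15.7 CPM in SCR lungs 1 to 6, against 17.2, 37.3, 41 and 49.4 CPM in the CTR lungs. The groups met between SCR lung 6 and CTR lung 1 without overlap, and the gene fell (log2 fold change -1.64, SE 0.26, edgeR adjusted p = 0.0416). Junb had 52.1, 47.1, 57.6, 95.2, 89.4 and 75.8 CPM in SCR lungs 1 to 6, against 101, 135, 143 and 207 CPM in the CTR lungs. All controls were higher than all SCR lungs (log2 fold change -1.08, edgeR adjusted p = 0.0548). Its exons overlap those of Prdx2 on the other strand, which averaged 115 CPM over the 10 lungs.

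All 21 Egr, Nr4a, Klf and other early response factors were below 0 (median -0.60). Unadjusted p-values were under 0.05 for 11 (10.2% of all genes), and the groups did not overlap for 5 (2.52%). Egr2, a zinc finger factor, had 3.50, 3.63, 3.39, 6.52, 5.34 and 6.75 CPM in SCR lungs 1 to 6, against 10.9, 7.68, 12.7 and 16.6 CPM in the CTR lungs. With SCR lungs 1 to 3 lowest and no overlap, the gene fell (log2 fold change -1.30, SE 0.23, edgeR adjusted p = 0.045). Egr3, its relative, had 0.311, 0.502, 0.237, 1.64, 2.56 and 1.67 CPM in SCR lungs 1 to 6, against 3.70, 2.76, 3.73 and 8.94 CPM in the CTR lungs. CTR lung 5 was far above the other controls, and no SCR lung reached them (log2 fold change -2.04, edgeR adjusted p = 0.1). Nr4a1, an orphan nuclear receptor, had 15.8, 17, 28.9, 50.2, 133 and 49.7 CPM in SCR lungs 1 to 6, against 122, 134, 203 and 403 CPM in the CTR lungs. SCR lung 5 overlapped the controls and the other SCR lungs lay below them (log2 fold change -2.13, edgeR adjusted p = 0.1). Klf4, a zinc finger factor of endothelium and epithelium, had 109, 127, 117, 85, 169 and 162 CPM in SCR lungs 1 to 6, against 216, 185, 293 and 304 CPM in the CTR lungs. Its groups did not overlap either (log2 fold change -0.96, edgeR adjusted p = 0.0668). CTR lung 5 was the highest control for 15 of the 21 genes, against 18.5% of all genes tested.

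Feedback inhibitors of MAP kinases followed. Of 18 dual-specificity phosphatases and Ras-MAPK feedback genes 16 were below 0 (median -0.45). At an unadjusted p under 0.05, 10 were lower, against 10.2% of all genes. Dusp8, a phosphatase of stress-activated kinases, had 21.9, 21.2, 16.3, 22.12, 36.8 and 41.4 CPM in SCR lungs 1 to 6, against 53.4, 90.3, 112 and 62.2 CPM in the CTR lungs. SCR lungs 5 and 6 were highest in their group, CTR lung 1 was the lowest control, and the groups did not overlap. The gene fell (log2 fold change -1.58, SE 0.28, edgeR adjusted p = 0.045). Dusp6, a phosphatase of ERK, had 97.5, 98.1, 94.5, 92, 97.6 and 122 CPM in SCR lungs 1 to 6, against 121, 134, 139 and 164 CPM in the CTR lungs. Here SCR lung 6 alone reached the controls (log2 fold change -0.47, edgeR adjusted p = 0.0866).

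Single inducible signalling genes, named by the rule from several lists, had negative log2 fold changes that did not pass the adjusted test. Osm, the cytokine oncostatin M, had 0.932, 1.06, 2.05, 2.60, 2.43 and 2.76 CPM in SCR lungs 1 to 6, against 3.34, 4.25, 6.82 and 9.18 CPM in the CTR lungs. No SCR lung reached CTR lung 1, the lowest control (log2 fold change -1.58, edgeR adjusted p = 0.0669). Sele, the E-selectin by which activated endothelium holds leukocytes, had 1.09, 1.28, 0.552, 1.27, 2.43 and 2.03 CPM in SCR lungs 1 to 6, against 4.25, 4.55, 5.11 and 4.40 CPM in the CTR lungs. The controls lay close together above every SCR lung (log2 fold change -1.66, edgeR adjusted p = 0.0838). Apold1, an early response gene of endothelium, had 2.25, 1.90, 3.07, 3.61, 6.38 and 7.69 CPM in SCR lungs 1 to 6, against 8.07, 13.6, 12.9 and 13.1 CPM in the CTR lungs. SCR lungs 5 and 6 came close to CTR lung 1 without overlap (log2 fold change -1.52, edgeR adjusted p = 0.0992). Il1b, interleukin 1 beta, had 17.1, 18.7, 46.4, 55.7, 83.1 and 118 CPM in SCR lungs 1 to 6, against 106, 83.2, 126 and 217 CPM in the CTR lungs. The groups overlapped through SCR lung 6 (log2 fold change -1.24, edgeR adjusted p = 0.164). Il6 was counted in few reads, 1, 4, 1, 11, 14 and 8 reads in SCR lungs 1 to 6, against 7, 11, 40 and 56 reads in the CTR lungs, and its groups overlapped (log2 fold change -1.75, edgeR adjusted p = 0.14). Of 21 NF-kB feedback genes and targets, the list of Sele, 17 were below 0 (median -0.31). At an unadjusted p under 0.05, 7 of them were lower, against 10.2% of all genes. The median of that list was -0.56 with SCR lungs 1 to 3 and -0.04 with SCR lungs 4 to 6. The cytokine and chemokine lists lay nearer the background. Of 34 cytokines and receptors, 3 were lower at an unadjusted p under 0.05, less than the 10.2% of all genes, and the median was -0.13 (-0.49 with SCR lungs 1 to 3 and 0.01 with SCR lungs 4 to 6). The median was 0.01 for 24 CXC and 0.06 for 27 CC chemokines and receptors. With SCR lungs 1 to 3 these medians were -0.43 and -0.40, and with SCR lungs 4 to 6 both were 0.16.

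**Figure D3:**
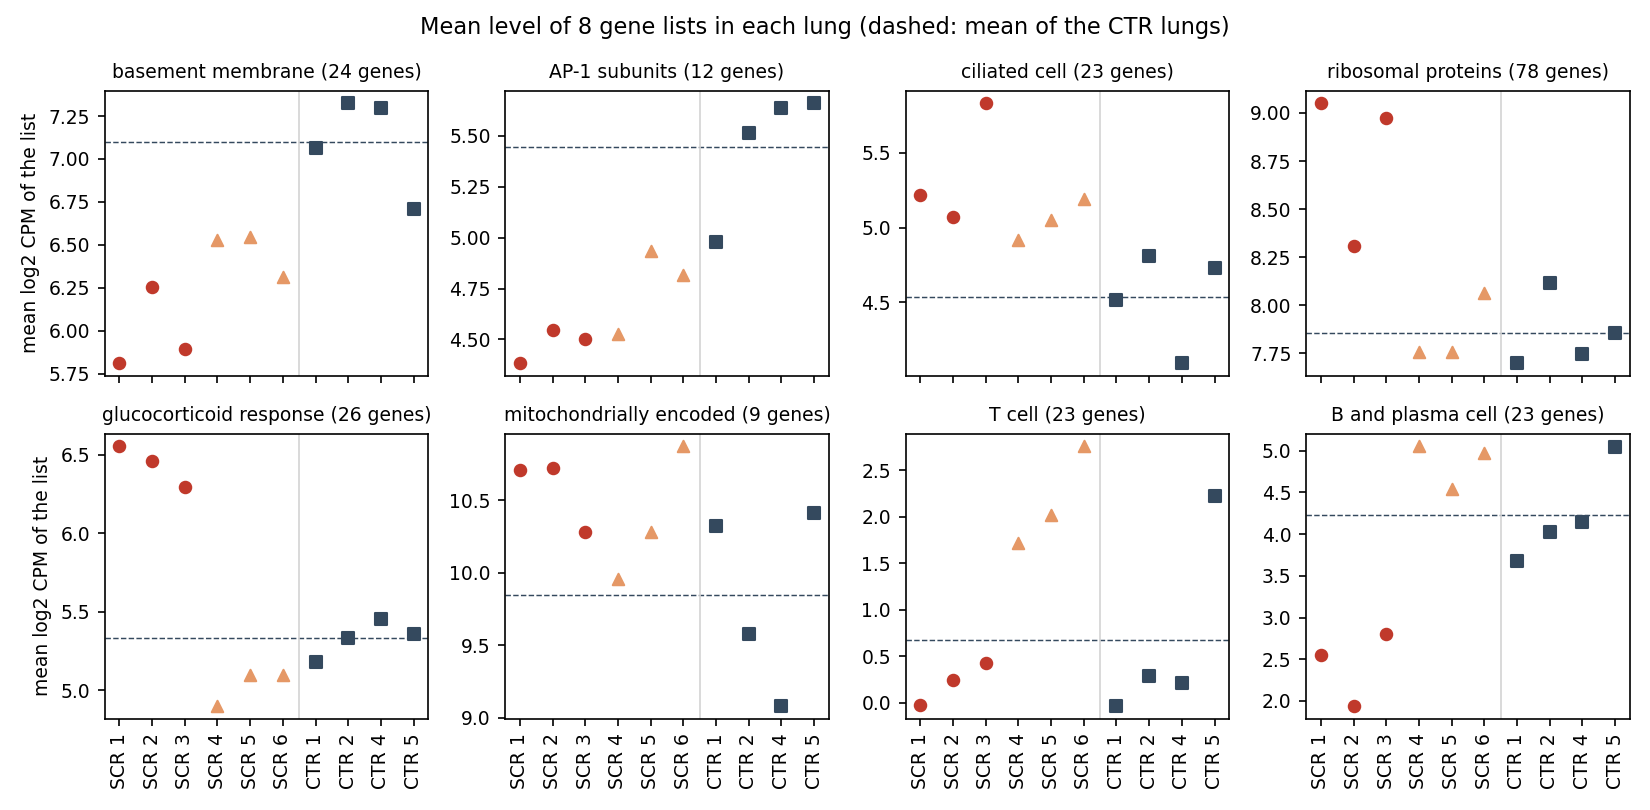
Mean log2 CPM of 8 gene lists in each lung, SCR lungs left of CTR lungs in each panel, with the mean of the CTR lungs as a dashed line (circles SCR lungs 1 to 3, triangles SCR lungs 4 to 6, squares CTR). The basement membrane and AP-1 lists are lower in every SCR lung than in any CTR lung and the ciliated cell list is higher in every one. The ribosomal, glucocorticoid and B cell lists set SCR lungs 1 to 3 apart from SCR lungs 4 to 6.

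Outside these groups, Slc25a25, Scn3b and Astn2 fell and Sfxn2 rose. Slc25a25, a mitochondrial carrier of ATP-magnesium and phosphate, had 26.5, 28.5, 29, 28.3, 45.9 and 41.9 CPM in SCR lungs 1 to 6, against 46.7, 68.1, 77.8 and 85.9 CPM in the CTR lungs. SCR lungs 5 and 6 came close to CTR lung 1 without overlap, and the gene fell with a log2 fold change of -1.06 (edgeR adjusted p = 0.0429). Its exons overlap those of Naif1 on the other strand, which averaged 9.61 CPM. Scn3b, a beta subunit of sodium channels, had 109, 97.1, 91.8, 145, 144 and 142 CPM in SCR lungs 1 to 6, against 259, 226, 255 and 165 CPM in the CTR lungs. It fell without overlap (log2 fold change -0.90, edgeR adjusted p = 0.045). Astn2, astrotactin 2, had 13.7, 11.9, 11.1, 14.7, 13.6 and 13 CPM in SCR lungs 1 to 6, against 20.8, 28, 25.2 and 16.9 CPM in the CTR lungs. It fell with CTR lung 5 the lowest control and no overlap (log2 fold change -0.80, edgeR adjusted p = 0.0471). Sfxn2, a mitochondrial inner membrane protein of the sideroflexin family (chr19:46573365-46596898), had 23.6, 16.1, 18.5, 18.3, 15.8 and 16.5 CPM in SCR lungs 1 to 6, against 7.34, 9.17, 6.91 and 11.8 CPM in the CTR lungs. All SCR lungs lay above all CTR lungs, with SCR lung 1 highest. It rose (log2 fold change 1.04, SE 0.18, edgeR adjusted p = 0.0441).

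Transcripts of granulocyte precursors, which store granule proteins before neutrophils mature, were at low levels in all lungs. Mpo, myeloperoxidase of primary granules (chr11:87793581-87804413), was counted in 0, 1, 4, 1, 1 and 6 reads in SCR lungs 1 to 6, against 41, 50, 31 and 19 reads in the CTR lungs. No SCR lung reached the lowest control, CTR lung 5, and the gene fell (log2 fold change -3.77, SE 0.64, edgeR adjusted p = 0.0416), a value that rests on at most 6 reads per SCR lung. Camp, the cathelicidin of secondary granules, had 0.466, 0.893, 2.29, 1.27, 0.208 and 4.13 CPM in SCR lungs 1 to 6, against 7.71, 7.01, 4.79 and 6.41 CPM in the CTR lungs. SCR lung 6 was highest in its group and still below the controls (log2 fold change -2.07, edgeR adjusted p = 0.0992). Ngp, neutrophilic granule protein, had 0.777, 1.62, 4.42, 4.40, 0.624 and 15 CPM in SCR lungs 1 to 6, against 19.7, 29.7, 12.8 and 16.7 CPM in the CTR lungs. In this gene SCR lung 6 overlapped the controls (log2 fold change -2.14, edgeR adjusted p = 0.123). Of the 12 genes of the list, 5 passed the filter on low counts. All 5 were below 0, and 3 had an unadjusted p under 0.05 in that direction, against 10.2% of all genes. A gene as low as Mpo in SCR lungs passes such a filter through other lungs, so the shared direction is no separate result. Markers of neutrophils as a whole had a median of -0.15 over 23 genes, -0.90 with SCR lungs 1 to 3 and 0.22 with SCR lungs 4 to 6, and a summed level of 429.5 to 2137 CPM in SCR lungs, against 711 to 1731 CPM in CTR lungs.

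Transcripts of multiciliated cells were higher in SCR lungs. All 23 genes of the list had a log2 fold change above 0, against 51.2% of all genes tested, with a median of 0.75 (1.02 with SCR lungs 1 to 3 and 0.47 with SCR lungs 4 to 6). Of these, 14 had an unadjusted p under 0.05 (8.58% of all genes in that direction), 1 passed the adjusted test (0.0126%), and for 4 the groups did not overlap (1.49%). The mean log2 CPM of the list was 5.22, 5.07, 5.83, 4.92, 5.05 and 5.19 in SCR lungs 1 to 6, against 4.51, 4.81, 4.10 and 4.73 in the CTR lungs. The summed level, which abundant members dominate, was 2176 to 4421 CPM in SCR lungs and 2157 to 3171 CPM in CTR lungs and did overlap. Promoter windows of 2 of the 12 genes with the largest positive log2 fold changes by the naming rule, Sntn of motile cilia and Lrrc34, are shown with the letters GTTGCC in capitals, the core that RFX factors of ciliated cells are known to bind. Neither is a member of the list, and both were picked as examples, so their matches do not show how common the letters are. On either strand GTTGCC was present in 12.5% of all windows, and for 8 of the 18 list genes with a window against 14.1% of all genes.
Sntn promoter (chr14:13670626-13670925, plus strand): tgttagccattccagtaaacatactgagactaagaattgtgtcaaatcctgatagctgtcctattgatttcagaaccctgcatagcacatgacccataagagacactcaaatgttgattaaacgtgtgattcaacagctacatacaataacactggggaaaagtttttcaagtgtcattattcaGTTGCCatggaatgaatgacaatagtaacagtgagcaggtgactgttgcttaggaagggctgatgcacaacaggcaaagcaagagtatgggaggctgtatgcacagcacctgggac
Lrrc34 promoter (chr3:30647769-30648068, minus strand): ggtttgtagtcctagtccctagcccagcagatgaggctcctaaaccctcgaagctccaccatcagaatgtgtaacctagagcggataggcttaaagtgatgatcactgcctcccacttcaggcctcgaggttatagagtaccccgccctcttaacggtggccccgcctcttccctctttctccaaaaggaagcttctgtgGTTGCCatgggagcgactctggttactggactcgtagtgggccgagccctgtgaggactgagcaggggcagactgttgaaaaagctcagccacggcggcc
The matches begin 66 bases before the start in Sntn and 50 before it in Lrrc34, and they describe the sequence only.

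Cetn4, a centrin (ENSMUSG00000045031, chr3:37307749-37312708), had 11.7, 10.2, 17.9, 8.54, 10.5 and 12.4 CPM in SCR lungs 1 to 6, against 4.67, 5.59, 3.82 and 6.04 CPM in the CTR lungs. All SCR lungs lay above all CTR lungs, SCR lung 3 highest and SCR lung 4 lowest of the treated. It rose (log2 fold change 1.24, SE 0.21, edgeR adjusted p = 0.0416), with 1.4 for SCR lungs 1 to 3 and 1.09 for SCR lungs 4 to 6. Its exons overlap those of Bbs12 on the other strand, which averaged 4.90 CPM. Sntn, sentan of the ciliary tip, had 29.7, 25.7, 50.5, 17.5, 23 and 22.3 CPM in SCR lungs 1 to 6, against 15.7, 9.99, 5.11 and 17 CPM in the CTR lungs. SCR lung 4 lay barely above CTR lung 5, and the other SCR lungs were higher (log2 fold change 1.23, SE 0.32, edgeR adjusted p = 0.0992). Ccdc113, a protein of centriolar satellites and cilia, had 30.6, 17.4, 40.4, 15.2, 16.6 and 24.4 CPM in SCR lungs 1 to 6, against 11, 9.77, 8.20 and 12.8 CPM in the CTR lungs. Every SCR lung was above every control (log2 fold change 1.20, edgeR adjusted p = 0.0734). Rsph4a, a radial spoke head protein of motile axonemes, had 26.6, 33.7, 63, 34.4, 38.5 and 39.6 CPM in SCR lungs 1 to 6, against 23.2, 17.1, 12.8 and 26.5 CPM in the CTR lungs. SCR lung 1 was the lowest of its group and just above CTR lung 5 (log2 fold change 0.98, edgeR adjusted p = 0.0828).

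Lrrc34 had 8.78, 9.54, 15.7, 7.48, 9.29 and 9.36 CPM in SCR lungs 1 to 6, against 7.04, 3.95, 1.38 and 5.06 CPM in the CTR lungs. CTR lung 4 was far below the other controls, and all of them were below the SCR lungs (log2 fold change 1.20, edgeR adjusted p = 0.103). Stk33, a kinase that sperm flagella need, had 28.3, 29.5, 51.7, 15.6, 18.8 and 16.8 CPM in SCR lungs 1 to 6, against 11.5, 13.8, 7.78 and 12.6 CPM in the CTR lungs. It was highest in SCR lungs 1 to 3, without overlap (log2 fold change 1.23, edgeR adjusted p = 0.0838). Foxj1, the factor that drives motile ciliogenesis, was looked at after its values were seen and had 109, 86.2, 129, 70.3, 60.01 and 98.8 CPM in SCR lungs 1 to 6, against 45.5, 92.5, 55.1 and 74.9 CPM in the CTR lungs. Its groups overlapped (log2 fold change 0.46, edgeR adjusted p = 0.339).

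Club cell markers, from the same airway epithelium, were higher as well. Of 16 club cell genes 14 were above 0 (median log2 fold change 0.70, 0.97 with SCR lungs 1 to 3 and 0.23 with SCR lungs 4 to 6). At an unadjusted p under 0.05, 7 of these genes were higher, against 8.58% of all genes. The summed level of the club cell genes was 33680 to 125600 CPM in SCR lungs, against 26740 to 49310 CPM in CTR lungs, and its part in the ciliated cell result was not tested. Scgb1a1, the main club cell secretion, had 74952, 41513, 102290.0, 24616, 29252 and 30948 CPM in SCR lungs 1 to 6, against 21398, 35871, 19917 and 23505 CPM in the CTR lungs. SCR lungs 1 to 3 lay above all controls and SCR lungs 4 to 6 among them (log2 fold change 1.01, edgeR adjusted p = 0.17). No club cell gene had groups that did not overlap.

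Ribosomal and respiratory transcripts were higher in SCR lungs 1 to 3 and close to CTR in SCR lungs 4 to 6. Of 78 cytosolic ribosomal protein genes 77 were above 0, with a median log2 fold change of 0.54. Unadjusted p-values were under 0.05 in that direction for 43, against 8.58% of all genes. The median log2 fold change was 0.96 with SCR lungs 1 to 3 and 0.06 with SCR lungs 4 to 6, and the groups overlapped for every gene of the list. Rps24, of the small subunit, had 1288, 751, 1152, 466, 448 and 699 CPM in SCR lungs 1 to 6, against 465, 489, 367 and 482 CPM in the CTR lungs, and its processed pseudogenes may share its reads (log2 fold change 0.83, edgeR adjusted p = 0.151). It was within the range of the controls in SCR lungs 4 and 5 and above it in the other SCR lungs. Of 75 nuclear-encoded respiratory chain genes 67 were above 0 (median 0.38, 0.68 with SCR lungs 1 to 3 and -0.06 with SCR lungs 4 to 6). At an unadjusted p under 0.05, 23 were higher, against 8.58% of all genes. Cox6c, of cytochrome oxidase, had 295, 178, 269, 109.8, 109 and 123 CPM in SCR lungs 1 to 6, against 109.6, 118, 99.8 and 104 CPM in the CTR lungs. Again SCR lungs 1 to 3 were highest (log2 fold change 0.75, edgeR adjusted p = 0.161). These genes are short, with median lengths of 1560 bases for ribosomal and 1534 bases for respiratory genes, and the length groups of their members had a median of 0.13, or 0.23 with SCR lungs 1 to 3. The part of length in this result was not tested.

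Mitochondrially encoded transcripts behaved otherwise. All 9 were above 0 (median 0.52, 0.57 with SCR lungs 1 to 3 and 0.58 with SCR lungs 4 to 6). Unadjusted p-values were under 0.05 for 3 (8.58% of all genes), and for none did the groups part. The median was 0.36 after the correction for GC content. mt-Rnr1, the small ribosomal RNA of mitochondria, had 916, 662, 798, 236, 410.0 and 748 CPM in SCR lungs 1 to 6, against 426, 220.5, 156 and 365 CPM in the CTR lungs. In it SCR lung 4 and CTR lungs 2 and 4 were low (log2 fold change 1.11, edgeR adjusted p = 0.136). mt-Co1, a subunit of cytochrome oxidase, had 10035, 12669, 12557, 9666, 10687 and 15731 CPM in SCR lungs 1 to 6, against 9269, 10941, 6438 and 10510.0 CPM in the CTR lungs. Its overlap was wide (log2 fold change 0.36).

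Glucocorticoid response genes, which the stress hormone corticosterone controls through its nuclear receptor, divided the SCR lungs. Over 26 genes the median log2 fold change was 0.54 with all SCR lungs, 1.00 with SCR lungs 1 to 3 and -0.21 with SCR lungs 4 to 6. At an unadjusted p under 0.05, 11 were higher (8.58% of all genes) and 2 lower (10.2%), and for none did the groups part. Fkbp5, a co-chaperone of that receptor and one of its best-known targets, had 121, 103, 63.5, 14.1, 12.3 and 14.1 CPM in SCR lungs 1 to 6, against 10.6, 16.7, 16.2 and 15.5 CPM in the CTR lungs. It was high in SCR lungs 1 to 3 and within the range of the controls in SCR lungs 4 to 6 (log2 fold change 1.89, SE 0.62, edgeR adjusted p = 0.147). Map3k6, a stress kinase, had 53.1, 53.5, 34.9, 6.74, 7.14 and 8.49 CPM in SCR lungs 1 to 6, against 9.47, 8.95, 11.8 and 7.82 CPM in the CTR lungs. Of the SCR lungs, 1 to 3 alone were above the controls (log2 fold change 1.52, edgeR adjusted p = 0.179). Glul, glutamine synthetase, had 737, 642, 614, 247, 210.4 and 239.7 CPM in SCR lungs 1 to 6, against 242, 312, 324 and 232 CPM in the CTR lungs. Once more SCR lungs 1 to 3 alone were above the controls (log2 fold change 0.69, edgeR adjusted p = 0.265). Values in SCR lungs 1 to 3 all lay above those in SCR lungs 4 to 6 for 21 of the 26 genes, against 22% of all genes tested.

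Genes of the circadian clock, which turns daily in every tissue, showed a similar division in part. Of 19 genes 12 were above 0 (median 0.39, 0.67 with SCR lungs 1 to 3 and 0.10 with SCR lungs 4 to 6). At an unadjusted p under 0.05, 4 were higher, against 8.58% of all genes. Cry1, a repressor of the clock, had 32.1, 48.7, 32.5, 14.3, 13.4 and 12.9 CPM in SCR lungs 1 to 6, against 12, 12.5, 12.9 and 12.6 CPM in the CTR lungs. SCR lungs 1 to 3 stood far above, SCR lungs 4 to 6 lay at or just above the highest control, and the groups parted (log2 fold change 1.04, edgeR adjusted p = 0.132). Per2, another repressor, had 98.5, 104, 83, 33.5, 10.05 and 27.5 CPM in SCR lungs 1 to 6, against 22.8, 22.5, 34 and 14.8 CPM in the CTR lungs. In SCR lungs 1 to 3 it was above all others (log2 fold change 1.33, edgeR adjusted p = 0.218). The time of day at which each lung was taken is not given in the sources used here. Heat shock proteins had a median of 0.36 over 18 genes, 0.83 with SCR lungs 1 to 3 and -0.40 with SCR lungs 4 to 6. Hsp90aa1, a chaperone, had 576, 792, 578, 215, 323 and 229 CPM in SCR lungs 1 to 6, against 364, 190.2, 153 and 297 CPM in the CTR lungs. It too was highest in SCR lungs 1 to 3 (log2 fold change 0.85, edgeR adjusted p = 0.248).

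**Figure D4:**
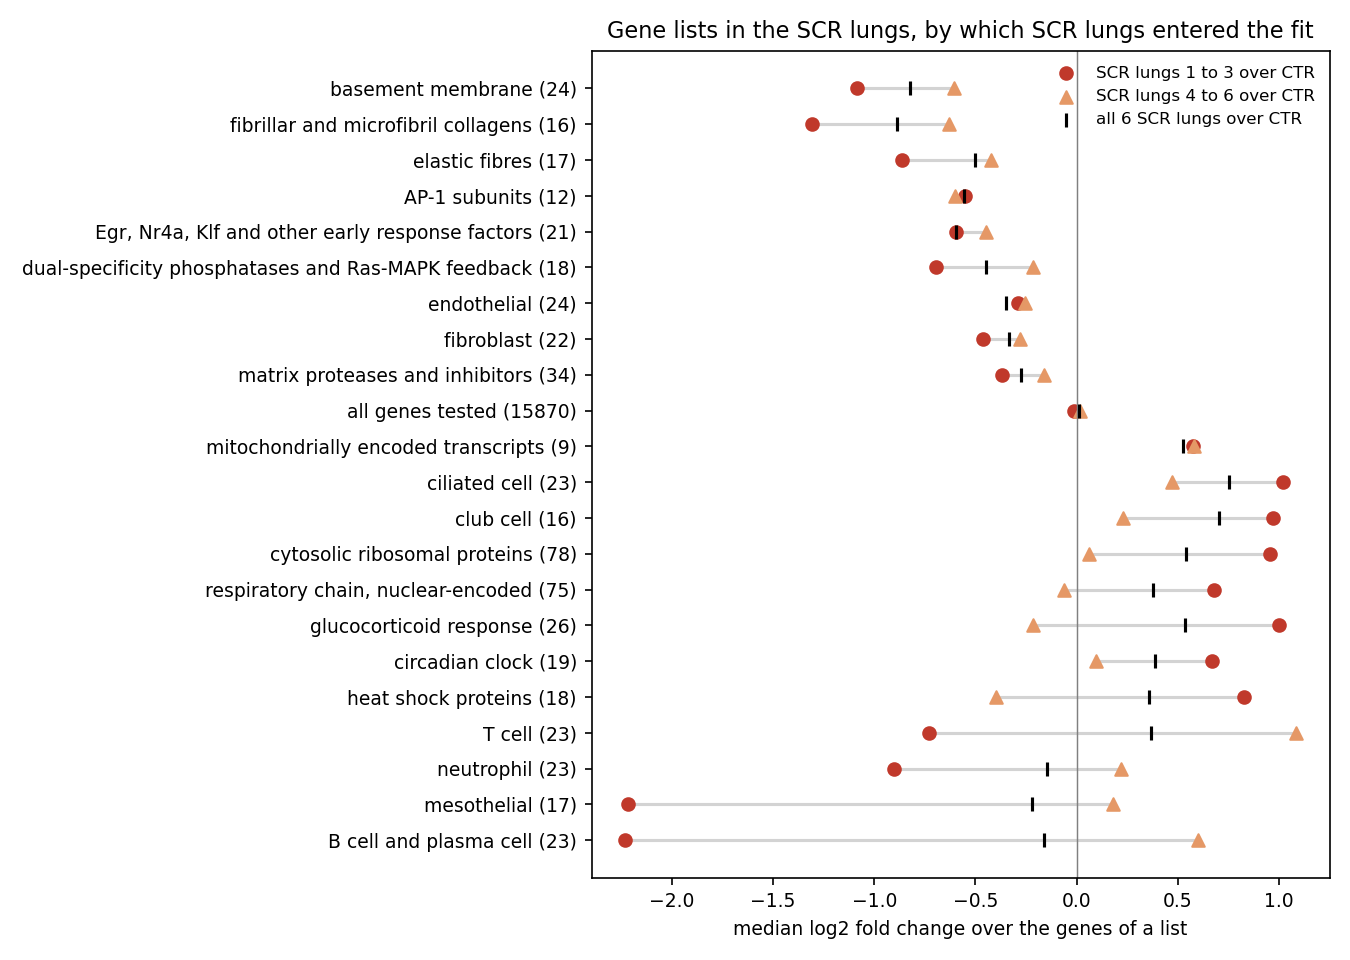
Median log2 fold change over the tested genes of each list (number of genes in brackets), with SCR lungs 1 to 3 (circles), SCR lungs 4 to 6 (triangles) or all 6 SCR lungs (black ticks) against CTR. Matrix and early response lists lie left of 0 and ciliated and club cell lists right of 0 with either set of SCR lungs. The glucocorticoid, respiratory, heat shock, T cell, neutrophil, mesothelial and B cell lists lie on opposite sides of 0.

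Lymphocyte and mesothelial markers separated the 2 sets of SCR lungs. The B cell and plasma cell list had a median of -2.23 with SCR lungs 1 to 3 and 0.60 with SCR lungs 4 to 6 over 23 genes, and a summed level of 457 to 1663 CPM in SCR lungs, against 709 to 1440 CPM in CTR lungs. For 20 of the 23 genes SCR lungs 1 to 3 were all lower than SCR lungs 4 to 6, against 21.4% of all genes tested. Vpreb3, expressed in B cell precursors, ran the other way with 54.5, 28.9, 52.7, 18.5, 13.6 and 22.05 CPM in SCR lungs 1 to 6, against 8.38, 19.2, 8.11 and 9.97 CPM in the CTR lungs (log2 fold change 1.48, edgeR adjusted p = 0.0992). Msln, mesothelin of the pleural lining, had 32.5, 7.31, 4.18, 70.4, 95.7 and 105 CPM in SCR lungs 1 to 6, against 39, 125, 83.1 and 104 CPM in the CTR lungs. SCR lungs 2 and 3 held little of it, and the other SCR lungs lay within or near the range of the controls (log2 fold change -0.74, edgeR adjusted p = 0.585). The T cell list had a median of 0.37 over 23 genes, -0.73 with SCR lungs 1 to 3 and 1.08 with SCR lungs 4 to 6, and its summed level was 49.4 to 190.4 CPM in SCR lungs, against 58.2 to 142 CPM in CTR lungs. The mean log2 CPM of the T cell list was -0.02, 0.25, 0.43, 1.72, 2.02 and 2.75 in SCR lungs 1 to 6, against -0.03, 0.29, 0.21 and 2.22 in the CTR lungs. SCR lungs 1 to 3 thus matched CTR lungs 1, 2 and 4, CTR lung 5 was high, and for 0 of the 23 genes did SCR lungs 1 to 3 all lie below all controls. With male lungs alone the median was -0.17. Cd3e, a chain of the T cell receptor complex chosen after its values were seen, had 0.0777, 0.167, 0, 1.64, 3.53 and 6.96 CPM in SCR lungs 1 to 6, against 0.0607, 0.373, 0.184 and 3.51 CPM in the CTR lungs. It was near 0 in SCR lungs 1 to 3 and CTR lungs 1, 2 and 4, and present in SCR lungs 4 to 6 and CTR lung 5, in mice that make few T cells. Tcrg-C4, a constant region of the gamma T cell receptor (chr13:19344558-19352756), had the largest log2 fold change by the naming rule (1.99, SE 0.60, edgeR adjusted p = 0.124). Its level was 0.699, 1.00, 0.867, 1.70, 1.87 and 5.01 CPM in SCR lungs 1 to 6, against 0.486, 0.596, 0.23 and 0.562 CPM in the CTR lungs, with no overlap and with SCR lung 6 far above the rest.

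With all 6 SCR lungs, immune response lists lay closer to the median of all genes, and alveolar lists lay below it. The median log2 fold change was 0.15 for 28 interferon-stimulated genes, with -0.29 for SCR lungs 1 to 3 and 0.37 for SCR lungs 4 to 6, and none of them had an unadjusted p under 0.05. It was -0.0036 for 14 genes of MHC class I, of which 2 were higher and 3 lower at that p, and -0.11 for 10 of class II, of which 1 was lower. Of 15 alveolar type 1 markers, among them the type IV collagen gene Col4a3, 14 were below 0 and 3 were lower at that p (median -0.23). Of 18 type 2 markers 11 were below 0, 7 were above it and 5 were lower (median -0.19), against 10.2% of all genes. With SCR lungs 1 to 3 the medians were -0.05 for type 1 and 0.01 for type 2, and with SCR lungs 4 to 6 they were -0.37 and -0.21. The summed level of type 2 markers overlapped, at 29250 to 65300 CPM in SCR lungs, against 37040 to 49450 CPM in CTR lungs. Abca3, the lipid transporter of lamellar bodies in type 2 cells, had 389, 418, 443, 568, 624 and 440.1 CPM in SCR lungs 1 to 6, against 635, 956, 809.7 and 632 CPM in the CTR lungs. The controls were above all SCR lungs (log2 fold change -0.66, edgeR adjusted p = 0.085). Unlike the list, Abca3 was lower in SCR lungs 1 to 3, with -0.86 for them and -0.44 for SCR lungs 4 to 6.

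The rest of the 12 genes with the largest positive log2 fold changes were at low levels, and none passed the adjusted test. Rasgrf1, an exchange factor of Ras, had 5.83, 3.24, 4.34, 3.45, 2.63 and 2.61 CPM in SCR lungs 1 to 6, against 1.64, 1.57, 0.691 and 1.87 CPM in the CTR lungs (log2 fold change 1.35, edgeR adjusted p = 0.0783). Ephx4, of the epoxide hydrolase family, had 3.65, 1.90, 5.20, 1.59, 1.94 and 2.97 CPM in SCR lungs 1 to 6, against 0.971, 1.49, 0.921 and 1.12 CPM in the CTR lungs (log2 fold change 1.35). Lypd6, a Ly6 family protein of Wnt signalling, had 2.17, 4.07, 5.68, 2.86, 1.87 and 1.74 CPM in SCR lungs 1 to 6, against 1.58, 0.969, 0.967 and 1.45 CPM in the CTR lungs (log2 fold change 1.30). In all 3 the groups did not overlap, and SCR lung 1 or 3 was highest. Pih1h3b, of the PIH1 domain family, had 1.48, 2.23, 4.10, 1.27, 1.94 and 2.76 CPM in SCR lungs 1 to 6, against 0.789, 0.671, 0.507 and 1.12 CPM in the CTR lungs. It was highest in SCR lung 3, without overlap (log2 fold change 1.55, edgeR adjusted p = 0.0992). Ppp1r42, a regulatory subunit of protein phosphatase 1, had 4.19, 2.40, 3.47, 1.96, 1.80 and 3.34 CPM in SCR lungs 1 to 6, against 1.46, 0.522, 0.8291 and 1.73 CPM in the CTR lungs. All SCR lungs were above the controls (log2 fold change 1.31). The pseudogene Rps24-ps3 (log2 fold change 1.48), which can share reads with Rps24, and the unnamed transcript RP24-470M22.10 (1.27), whose exons overlap those of the more abundant Smim10l1 on the same strand, are uncertain. Exons of Mcam, Cox6c, Mfap4, Abca3, Glul, Il1b and Tnc overlap those of a less abundant tested gene on the other strand, and reads of the 2 strands could not be told apart here.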

How the data were processed

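Lung tissue was sequenced as bulk RNA, and the part of the lung taken is not given in the sources used here. The authors trimmed reads with cutadapt 1.15, used STAR 2.5.2b for alignment to the GRCm38 genome and counted reads per gene with featureCounts 1.5.3, and the submitters' processing notes also name Bowtie2 2.3.3.1 and SAMtools 1.5. The strand setting of the counting is not given in the sources used here. The deposited table of raw counts, per gene and lung, was used for all main results. The deposited FPKM values, which the authors had normalized within and between lungs, served an alternative alone. For 6 genes, Scgb1a1, Sftpc and mt-Co1 among them, these values were equal in all lungs within 1e-06. The deposited GC percent and length of each gene were used to group genes.

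Counts were fitted with edgeR 4.0.16 (TMM scaling, filterByExpr by group, robust quasi-likelihood, all 15 lungs in one model, R 4.3.3) and p-values were adjusted over 15870 genes of 46603. Standard errors are the size of the fold change over the root of F. Genes were named if they passed the adjusted test, were among the 12 largest rises or falls at an unadjusted p under 0.05 with groups that did not overlap and a mean of at least 1 CPM, had one of the 5 smallest p-values in a list, or were its most abundant member. Cd3e and Foxj1 were added after their values were seen. The members and the 70 gene lists were chosen with earlier results of these data known. Chromosomes were taken from the GENCODE M21 annotation and promoters from RefSeq GRCm38.p6. In all, 27 alternatives were run, including DESeq2 1.42.0, limma 3.58.1, other scalings, a GC correction and the omission of each lung. Library measures were compared by exact two-sided permutation tests, for which 0.00952 is the smallest possible p.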

Additional observations from a re-analysis of the deposited data

Results flagged for a closer look

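In 13 of the 152 groups of lungs checked, over 72 named genes and 4 library measures, 1 lung stood far from the rest of its group by Dixon's criterion, which chance alone meets in about 1 of 20 groups. The ciliary genes Sntn at 50.5 CPM and Rsph4a at 63.0 CPM, and Lrrc34 at 15.7 CPM, stood high in SCR lung 3. SCR lung 6 stood high for Ngp of neutrophil granules at 15.02 CPM, Tcrg-C4, a gamma receptor gene of T cells, at 5.01 CPM and the ERK phosphatase Dusp6 at 122 CPM. Nr4a1, the early response receptor, stood high in SCR lung 5 at 133 CPM, and Sfxn2 in SCR lung 1 at 23.6 CPM. Among the CTR lungs, lung 5 stood high for Egr3 at 8.94 CPM and for Cd3e at 3.51 CPM, and low for Col1a1 at 109 CPM. Vpreb3 stood high in CTR lung 2 at 19.2 CPM and Apold1 low in CTR lung 1 at 8.07 CPM.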

How the results depend on the processing

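Beside the 18 genes that passed an adjusted p of 0.05, other methods gave between 0 and 600. The count was 600 with DESeq2 (17 of the 18 kept), 348 with edgeR's likelihood ratio test (18 kept) and 42 with no filter on low counts. With sex as a covariate it was 19, with 10 of the 18 kept. It was 8 with the GC content correction, 3 with upper-quartile normalization, 2 with limma on FPKM at either pseudocount, and 0 with scaling by library size only, with male lungs only, and when only SCR and CTR lungs entered the fit. At an unadjusted p under 0.05 those last 3 settings gave 2779, 3854 and 2403 genes, against 2976. It was 3659 without SCR lungs 4 to 6 (5820 at an unadjusted p) and 0 without SCR lungs 1 to 3 (1613). Leaving out each lung gave 0 to 108 genes, the highest without SCR lung 5, and 1694 genes at an unadjusted p without CTR lung 4. Groups that did not overlap numbered 636, against 1470 with male lungs only, 1621 without SCR lungs 1 to 3 and 4686 without SCR lungs 4 to 6, counts that grow by construction with fewer lungs, and 675 to 1369 with each lung left out.

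The numbers of the lungs are names in the labels and do not pair them. Deviations of same-numbered lungs correlated at -0.161, -0.066, -0.113 and 0.299. With the number as a replicate block, 0 genes passed the adjusted test and 1915 had an unadjusted p under 0.05.

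Without SCR lungs 1 to 3 the log2 fold change turned to -0.090 for Fkbp5, -0.22 for Glul, -0.32 for Map3k6, 0.075 for Msln and -0.44 for Sftpc, and for Sftpc it was -0.15 without SCR lung 1, the lowest of -0.15 to 0.24 with each lung left out. For Cd3e it was -0.17 with male lungs only and -3.46 without SCR lungs 4 to 6. The causes were not tested. Over all 27 alternatives, the medians of the lists of basement membrane (-1.09 to -0.60), fibrillar collagens (-1.31 to -0.62), elastic fibres (-0.86 to -0.41), AP-1 (-0.64 to -0.36), early response factors (-0.69 to -0.39), MAP kinase feedback (-0.69 to -0.22) and ciliated cells (0.47 to 1.02) kept their sign. The median changed sign for 19 of the 70 lists without SCR lungs 1 to 3 and for 12 without SCR lungs 4 to 6. With 6 against 4 lungs in which 3 stood apart, which single genes pass the adjusted test depends on the lungs and the tool. Low counts limit Mpo, Il6 and Cd3e, and intervals of reads without molecular identifiers would cover counting error only.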

Other observations

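Further gene groups lay to one side without a gene that passed the adjusted test. Over all genes, 10.2% were lower and 8.58% higher at an unadjusted p under 0.05. Of 26 integrins, the receptors through which cells hold matrix, 24 had a log2 fold change below 0 (median -0.35) and 9 were lower at an unadjusted p under 0.05. Of 20 targets of YAP and SRF, factors that respond to tension in the cytoskeleton, 18 were below 0 (median -0.38) and 10 were lower. Of 22 adenylate cyclases and enzymes of cyclic nucleotides, 20 were below 0 (median -0.38), with 9 lower and 1 higher. Of 32 genes of the cell cycle and DNA replication, 27 were below 0 (median -0.33) and 5 were lower, near the 10.2% of all genes, with a median of -0.56 with SCR lungs 1 to 3 and -0.07 with SCR lungs 4 to 6. Genes of Nrf2 and detoxification were above 0 for 23 of 25 (median 0.25), 7 of them higher, with a median of 0.66 with SCR lungs 1 to 3 and -0.06 with SCR lungs 4 to 6. Mitochondrial ribosomal proteins were above 0 for 47 of 52 (median 0.29), 15 of them higher, in the same division of the SCR lungs (0.56 with lungs 1 to 3).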
